A study of Glycine max with 36 samples.

Results

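CHS7 (Glyma.01G228700) and CHS8 (Glyma.11G011500) are chalcone synthase (CHS) genes of soybean, 2 of the 52872 genes in the deposited strand table, and were taken by their identifiers. Their small RNA hits are described on the sense and the antisense strand of the transcript in all 36 libraries. The RefSeq gene table of the assembly Glycine_max_v4.0 lists CHS7 on chromosome 1 and CHS8 on chromosome 11. Each had 1 splice form in the deposited table, with a coding sequence of 1170 bases in both and a cDNA of 1481 bases for CHS7 and 1610 bases for CHS8.

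Chalcone synthase makes the entry step of flavonoid synthesis, from which the anthocyanin and proanthocyanidin pigments of the seed coat derive. Small interfering RNAs (siRNAs) are cut by Dicer-like enzymes from double-stranded RNA, so they can come from both strands, and those antisense to a messenger RNA can guide an Argonaute protein to it. At the soybean I locus, CHS genes lie in inverted repeat, and its dominant alleles silence CHS genes in the seed coat. The series asks in which tissues the CHS siRNAs occur.

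Immature seed coats gave 14 libraries. Those with the i-i allele (genotype i-i R T, yellow coat with a black hilum in Williams and Clark 63) were Williams at seed fresh weights of 100 to 200, 200 to 300 and 400 to 500 mg, Clark 63 at 50 to 100 mg, and UC413 at 50 to 100 mg, a Clark isoline that carries mi and has a minute hilum and a defective coat, called Clark mi here. Those with the I allele (I R t, yellow coat) were Richland, 3 libraries at 5 to 6 mg and 1 at 10 to 25 mg. Those with the recessive i allele were T157 (i R t, imperfect black coat), 3 libraries at 5 to 6 mg and 1 at 10 to 25 mg, and Williams 44, a mutation of Williams to i (i R T, black coat), 1 library at 50 to 75 mg. The other 22 libraries all carried i-i. From Williams they were a dry seed coat, a dry cotyledon, an immature cotyledon, 2 embryo axes, 7 seedling cotyledons of 7 stages and a leaf, and from Clark and its isolines five-foliate (Lf1) and glabrous (P1) they were 3 vegetative buds, 2 shoot tips of 1-month plants and 4 shoot tips of adult plants. Plants were grown in a greenhouse. The labels do not say whether replicates came from separate plants, so the spread between these libraries, on which the p-values rest, may be technical. Where all genes were tested together (edgeR), the spread was estimated across genes and not from CHS7 and CHS8 alone.

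Values are hits per M (mega) reads of the library (RPM). Reads ranged from 9.50 to 58.5 M per library, and 11.6 to 51.3 M in the immature seed coats, where 3 hits correspond to 0.0584 to 0.259 RPM. The seedling cotyledon library of stage 2 stood apart, with 0.965 M gene hits against 5.74 to 85.3 M in the others, and had 0 hits on CHS7 and CHS8, which at its 19.96 M reads allows up to 0.150 RPM. The replicates of Richland and of T157 at 5 to 6 mg differed by more than counting error (chi-square of 41.3 and 50.5 per degree of freedom over genes). The headers name the strands only as positive and negative, and the positive strand was read as sense. On 94 ribosomal protein genes with at least 1000 hits the positive strand held a median of 94.9% of hits. On 37 SPL genes with that depth, a family that includes targets of the antisense microRNA miR156, it held a median of 0.107%. Of these 37 genes, 31 had most of their hits on the negative strand.

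Nearly all CHS7 and CHS8 hits carried the authors' mark of a unique hit. For CHS7, unique and total hits were equal on both strands in all 36 libraries, 281749 sense and 132006 antisense hits in all. For CHS8, the 131829 antisense hits were all unique, and 37 of 278072 sense hits were not, spread over 19 libraries with at most 5 in any of them. Unique hits over all genes exceeded the reads of the library in 17 of 36 libraries, with up to 1.91 hits per read. A unique hit is therefore not a read assigned to a single gene, and reads that match CHS7 and CHS8 alike cannot be divided between them here.

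On both strands, hits on both genes were far higher in i-i immature seed coats than in any other i-i tissue that was not a seed coat. CHS7 sense hits were 3698, 1179 and 355 RPM in the Williams coats of 100 to 200, 200 to 300 and 400 to 500 mg, 2134 RPM in Clark 63 and 1019 RPM in Clark mi. Its antisense hits in the same libraries were 2083, 501, 162, 1124 and 541 RPM. In the 21 other i-i libraries, CHS7 had 0 to 4.81 sense RPM (median 1.86) and 0 to 2.63 antisense RPM (median 0.632). The groups did not overlap on either strand. The Williams dry seed coat, also i-i, had 1923 sense and 749 antisense RPM and lay within the range of the immature coats.

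CHS8 gave nearly the same levels. Its sense hits were 3650, 1167 and 345 RPM in the Williams coats in the same order of weight, 2117 RPM in Clark 63 and 1008 RPM in Clark mi, against 0 to 4.86 RPM (median 2.00) in the other i-i tissues. Its antisense hits were 2087, 502, 162, 1123 and 540 RPM, against 0 to 1.43 RPM (median 0.474).

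The lowest of the 5 coats exceeded the highest of the 21 other libraries 73.9-fold for CHS7 sense, 61.6-fold for CHS7 antisense, 71.0-fold for CHS8 sense and 113.4-fold for CHS8 antisense hits. Without the Williams coat of 400 to 500 mg, the lowest of them, these gaps were 212, 190.3, 207 and 352-fold. On log2(RPM + 1), a scale that understates the change of low values, the mean difference was 8.82 and 8.47 for CHS7 sense and antisense and 8.76 and 8.62 for CHS8. A two-sided exact permutation test gave p = 1.52e-05 for each of the 4, the smallest p that 5 against 21 libraries can give (4.56e-05 with Benjamini-Hochberg adjustment over 12 permutation tests). In whole tissues, fewer cells that hold these small RNAs and less of them per cell cannot be told apart. Libraries were made with either of the kits named in the labels, and which kit made which library is not given there, so the part of the kit was not tested.

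**Figure D1:**
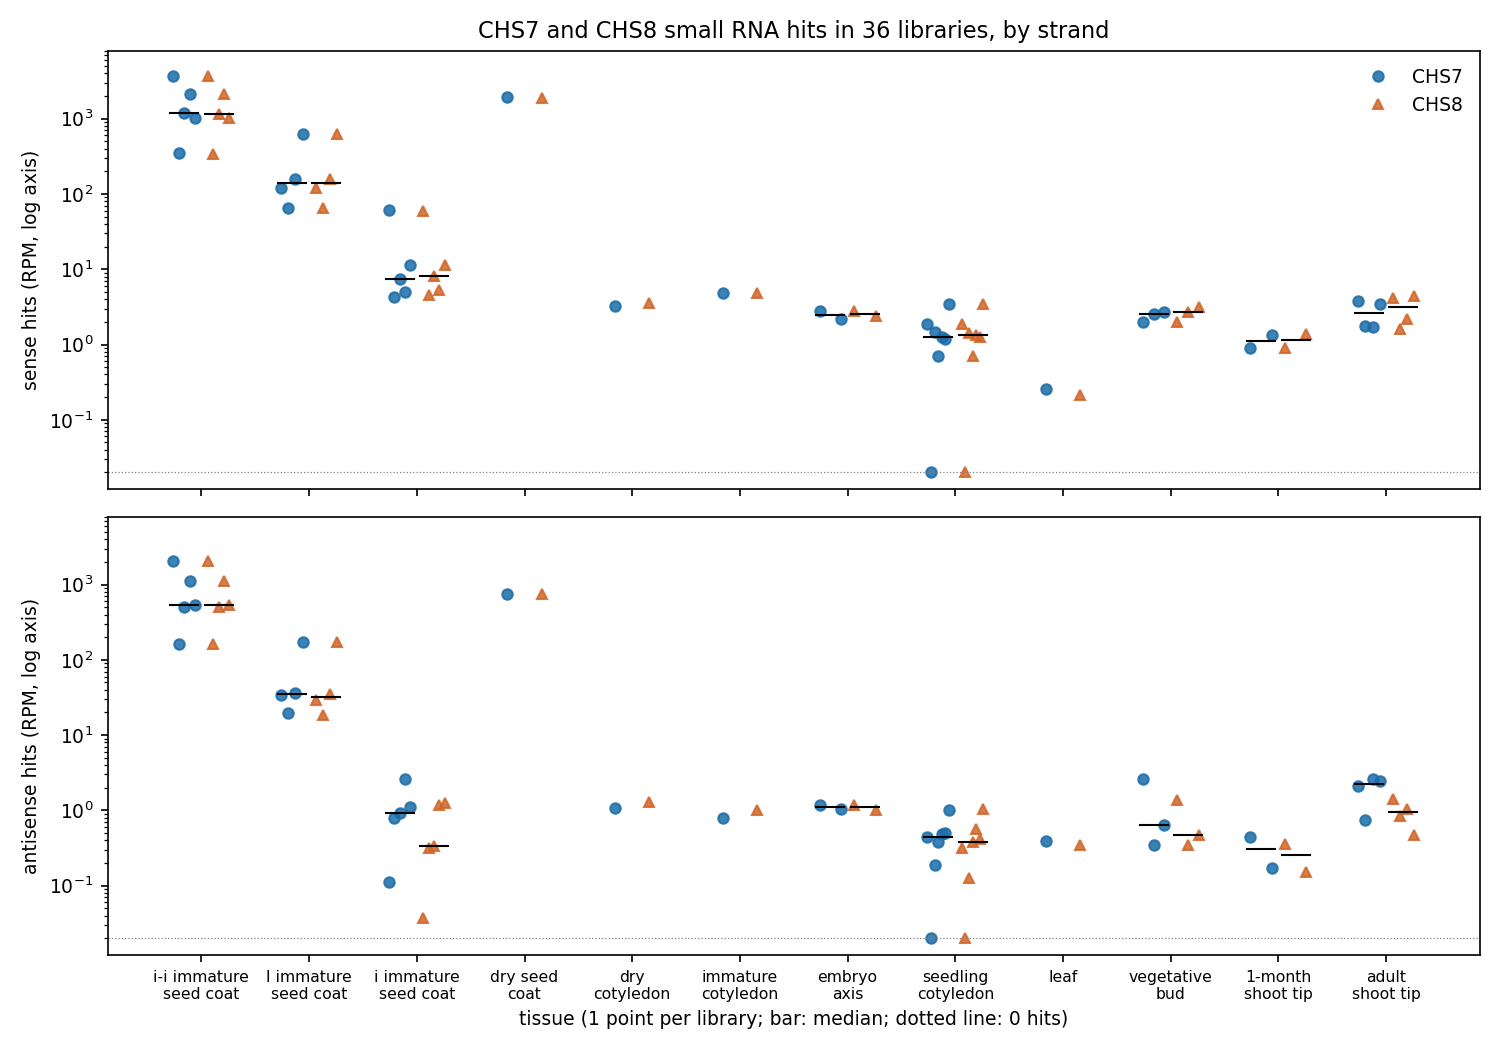
Sense (top) and antisense (bottom) hits of CHS7 (circles) and CHS8 (triangles) in RPM on a log axis, 1 point per library, with bars at medians and libraries with 0 hits on the dotted line. Hits reached 3698 sense and 2083 antisense RPM in i-i seed coats and did not exceed 4.86 RPM in tissues other than seed coats. On the sense strand 4 of 5 i seed coats lay above those tissues, and on the antisense strand all 5 lay within their range. Of these, Williams 44 (0.113 RPM on CHS7 and 0.0376 RPM on CHS8) lay above only the stage 2 seedling cotyledon library, which had 0 hits.

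Outside seed coats the levels were low. On the sense strand of CHS7 the immature cotyledon had 4.81 RPM (180 hits, 95% exact Poisson interval 4.13 to 5.56 RPM) and the dry cotyledon 3.28 RPM. Adult shoot tips had 2.68 ± 1.08 RPM (mean ± SD, n = 4), embryo axes 2.77 and 2.20 RPM, and vegetative buds 2.42 ± 0.370 RPM (n = 3). Seedling cotyledons followed with 1.42 ± 1.08 RPM (n = 7, the stage 2 library included), 1-month shoot tips with 0.886 and 1.35 RPM and the leaf with 0.259 RPM (6 hits, interval 0.0950 to 0.564 RPM). The ends of this order differed by more than counting error. Neighbours in it overlapped or came from 1 library each, so their order is not a result. Buds and adult tips came from standard, five-foliate and glabrous Clark, and seedling cotyledons from different stages. The SDs of these tissues thus span isolines or stages as well as libraries.

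On the antisense strand adult shoot tips had the highest mean for CHS7, 1.98 ± 0.850 RPM (n = 4). For CHS8 their mean was 0.947 ± 0.399 RPM, below the 1.30 RPM of the dry cotyledon and the 1.17 and 1.02 RPM of the embryo axes. The other tissues had between 0.171 RPM (a 1-month tip) and 2.63 RPM (a bud from standard Clark) for CHS7, apart from stage 2. Sense hits outnumbered antisense hits for CHS8 in every library with hits except the leaf, which had 5 sense and 8 antisense hits. For CHS7 the exceptions were the leaf (6 and 9), the standard Clark bud (19 and 25) and the five-foliate adult tip (23 and 35).

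The Williams seed coats of 100 to 500 mg were also compared with the seedling cotyledons of the same cultivar over all genes, 3 libraries against 7, each strand on its own. CHS7 was higher in the coats by 8.70 ± 1.11 on the log2 scale (± SE) on the sense strand and by 9.40 ± 0.93 on the antisense strand. CHS8 was higher by 8.69 ± 1.11 and 9.48 ± 0.96. All 4 passed an adjusted p of 0.05 in edgeR's quasi-likelihood F test (adjusted p = 5.03e-06 for both genes on the sense strand, 3.25e-06 and 3.73e-06 for CHS7 and CHS8 on the antisense strand). In this comparison 27.5% of 9962 genes tested passed as higher and 23.2% as lower on the sense strand, and 28% and 26.4% of 8510 genes on the antisense strand, so a call alone does not set CHS7 and CHS8 apart. By size of change CHS7 stood at place 33 and CHS8 at 35 on the sense strand, and at 15 and 11 on the antisense strand. The median change of all genes was 0.08 and 0.13. Scaled to reads instead of TMM factors, that median was 1.49 and 1.70, the calls were 3605 higher and 720 lower on the sense strand (2735 and 2307 with TMM) and 3597 and 666 on the antisense strand (2387 and 2247), and CHS7 was higher by 10.25 and 11.04.

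Over the 14 immature seed coats, the lowest I or i-i coat and the highest i coat lay further apart on the antisense than on the sense strand. For CHS7 this was not so between Richland and T157 at the matched weight of 5 to 6 mg. In Richland at 5 to 6 mg CHS7 had 119, 65.7 and 160 sense RPM and 34.2, 19.7 and 36.5 antisense RPM in replicates 1, 2 and 3. In T157 at the same weight it had 4.22, 7.39 and 4.95 sense RPM and 0.781, 0.924 and 2.63 antisense RPM, from 54, 88 and 64 sense and 10, 11 and 34 antisense hits. Every Richland library lay above every T157 library on both strands. In edgeR the change of CHS7 at this weight was about equal on the strands, 4.67 ± 0.40 sense and 4.70 ± 0.45 antisense (log2 scale, ± SE). For CHS8 it was 4.55 ± 0.39 sense and 5.81 ± 0.49 antisense.

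Among i coats, Williams 44 was high on the sense strand and low on the antisense strand. It had 60.7 sense RPM on CHS7 (1616 hits) and 0.113 antisense RPM (3 hits in 26.6 M reads, 95% exact Poisson interval 0.0232 to 0.329 RPM). On CHS8 it had 59.7 sense RPM (1588 hits) and 0.0376 antisense RPM (1 hit, interval 0.000951 to 0.209 RPM). Its sense level lay just under that of the lowest Richland library, which had 65.7 RPM on both genes, although per M gene hits the values for CHS7 were 29.5 and 129. Its antisense RPM was the lowest of all seed coats on both genes. Against T157 at 10 to 25 mg, the other i coat of over 5 to 6 mg, its CHS7 sense RPM was 5.29 times as high (95% interval 4.66 to 6.03) and its antisense RPM 0.101 times as high (0.0197 to 0.330). Clark 63 and Clark mi, both at 50 to 100 mg, were the i-i coats nearest to it in weight. Clark mi had 1019 sense and 541 antisense RPM on CHS7, below the 2134 and 1124 RPM of Clark 63. Clark 63 had 35.2 times the CHS7 sense RPM of Williams 44 (33.5 to 37.0) and 9975 times its antisense RPM (3413 to 48374, from the 3 hits of Williams 44), with 1 library of each. These intervals, like all intervals on counts here, cover counting error only.

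CHS8 in the other coats followed CHS7 on the sense strand and was lower on the antisense strand of T157 at 5 to 6 mg, though not in its 10 to 25 mg library (30 hits against 27). Richland at 5 to 6 mg had 119, 65.7 and 159 sense RPM and 29.3, 18.4 and 35.03 antisense RPM. T157 at that weight had 4.53, 8.06 and 5.26 sense RPM and 0.312, 0.336 and 1.16 antisense RPM, from 58, 96 and 68 sense and 4, 4 and 15 antisense hits. The lowest I or i-i coat exceeded the highest i coat 1.08-fold for CHS7 sense and 1.10-fold for CHS8 sense hits, but 7.48-fold and 14.9-fold for their antisense hits. Scaled to the gene hits of the library instead of its reads, the sense gaps were 4.38-fold and 4.46-fold and the antisense gaps 10.5-fold and 22.2-fold, so the antisense gap was the wider on both scales. Without Williams 44 the sense gaps by reads were 5.72-fold and 5.83-fold, and the antisense gaps did not move. Without T157 replicate 3 at 5 to 6 mg the CHS7 antisense gap was 17.7-fold.

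Over the 9 I and i-i coats against the 5 i coats, the mean difference on log2(RPM + 1) was 5.50 for CHS7 sense, 6.66 for CHS7 antisense, 5.44 for CHS8 sense and 6.97 for CHS8 antisense hits. A two-sided exact permutation test gave p = 0.0004995 for each, the smallest that 9 against 5 can give (0.000749 adjusted over the 12 tests). On the linear RPM scale the exact permutation p was 0.0569 for the sense strand of both genes and 0.0829 and 0.0834 for the antisense strand of CHS7 and CHS8. Allele, cultivar and seed weight cannot be told apart in this contrast: all I coats were Richland, the i-i coats weighed 50 mg or more, and every i coat except Williams 44 weighed 25 mg or less.

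The share of hits on the sense strand gives the strand balance within a library and does not depend on the scaling to reads. In i-i coats CHS7 was 64.0 to 70.2% sense and CHS8 63.6 to 69.9%. In Richland CHS7 was 77.0 to 81.4% sense and CHS8 78.1 to 81.9%, above every i-i coat. In T157 CHS7 was 84.4, 88.9 and 65.3% sense at 5 to 6 mg (95% exact binomial intervals 73.1 to 92.2, 80.99 to 94.3 and 55.0 to 74.6%) and 91.2% at 10 to 25 mg. CHS8 there was 93.5, 96.0 and 81.9% sense, and 90.1% at 10 to 25 mg. Williams 44 was 99.8% sense on CHS7 (interval 99.5 to 100.0%) and 99.9% on CHS8. The order of Richland above the i-i coats was noticed in the data, has no test, and goes with cultivar and weight. Over all genes the coats had 23.9 to 42.1% of hits on the sense strand (median 34.7%), so CHS7 and CHS8 leaned to the sense strand while the hits of all genes leaned to the antisense strand.

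The 9 I and i-i coats averaged 72.0% sense and the 5 i coats 85.9% for CHS7, a difference of -13.9 percentage points (two-sided exact permutation p = 0.0180, 0.0196 adjusted over the 12 tests). For CHS8 the means were 72.3 and 92.3%, a difference of -19.996 points (exact permutation p = 0.000999, adjusted 0.00133). The CHS7 difference rested on Williams 44: without it the difference was -10.4 points with an exact permutation p of 0.0615, and for CHS8 it was -18.1 points with an exact permutation p of 0.00140. The T157 replicate 3 library had the lowest CHS7 sense share of the i coats.

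**Figure D2:**
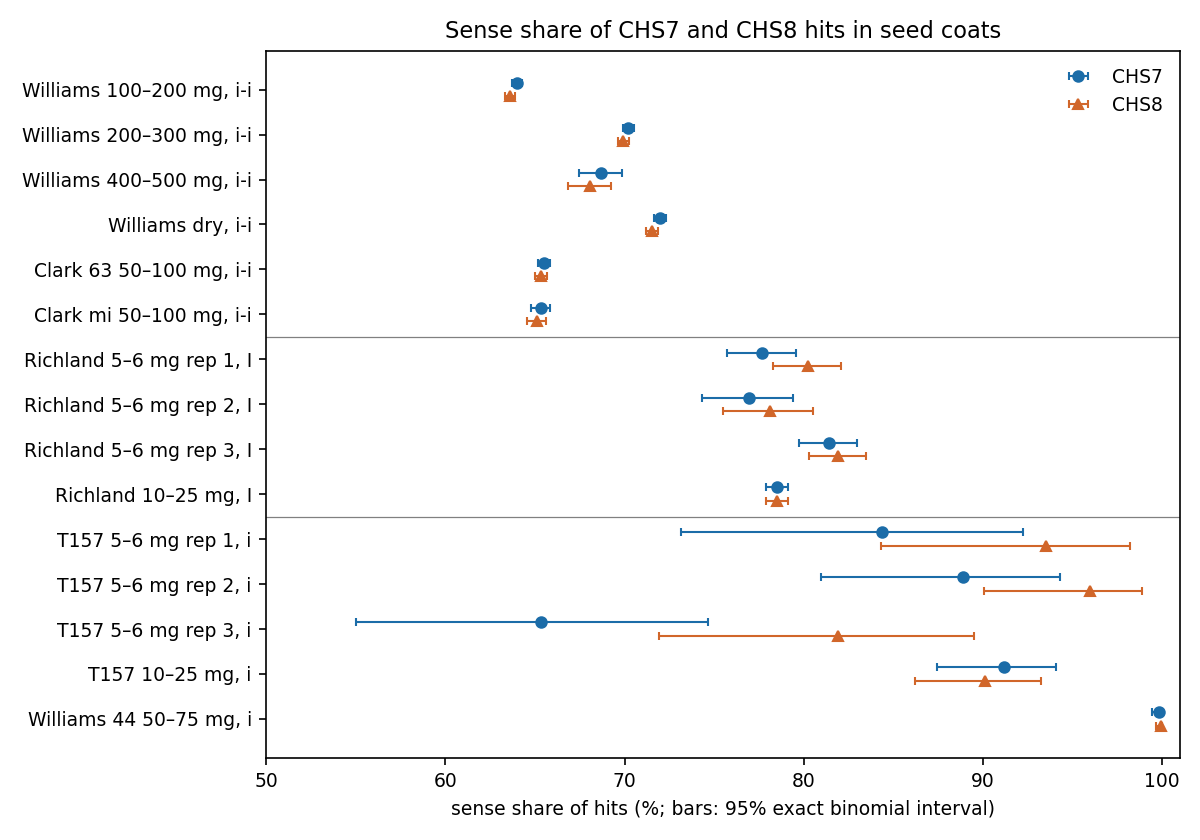
Sense share of the hits of CHS7 (circles) and CHS8 (triangles) in percent, with 95% exact binomial intervals, in each seed coat library; horizontal lines part the i-i, I and i libraries. Shares lay at 63.6 to 72.0% in i-i coats, the dry coat included, at 77.0 to 81.9% in Richland, and at 81.9 to 99.9% in i coats except for CHS7 in T157 replicate 3 at 65.3%.

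At the matched weight of 5 to 6 mg, Richland and T157 were compared over all genes, 3 libraries against 3, on each strand. CHS7 was higher in Richland by 4.67 ± 0.40 on the log2 scale (± SE) on the sense strand and 4.70 ± 0.45 on the antisense strand. CHS8 was higher by 4.55 ± 0.39 on the sense strand and 5.81 ± 0.49 on the antisense strand, 56.3-fold. Without T157 replicate 3 the antisense changes were larger, 5.43 for CHS7 and 6.67 for CHS8. edgeR's adjusted p was 4.59e-13 for both genes on the sense strand, and 5.15e-22 for CHS7 and 4.33e-28 for CHS8 on the antisense strand. The size of these p depended on the libraries in the fit. Without T157 replicate 2 edgeR's adjusted p was 6.44e-08 for both genes on the sense strand. Without T157 replicate 1 it was 3.62e-06 for CHS7 and 1.13e-06 for CHS8 on the antisense strand. Few genes passed here, 39 higher and 27 lower on the sense strand (73 and 44 without T157 replicate 1) and 49 and 26 on the antisense strand (46 and 16 without Richland replicate 1): 0.638% of 6116 genes as higher and 0.441% as lower on the sense strand, and 0.824% and 0.437% of 5944 genes on the antisense strand. By p, CHS7 and CHS8 were at places 1 and 2 on the sense strand, and CHS8 at place 1 and CHS7 at place 4 on the antisense strand. Scaled to reads, the median change of all genes was -0.30 and -0.34 (0.00 and 0.02 with TMM), with 35 genes higher and 56 lower on the sense strand (39 and 27 with TMM) and 33 and 31 on the antisense strand (49 and 26). Relative to that shift the changes of both genes kept their size, at 4.38 and 4.26 on the sense strand and 4.37 and 5.48 on the antisense strand. The genotypes given for Richland (I R t) and T157 (i R t) differ at I alone. Any other differences between the lines were not tested and cannot be told apart from the allele.

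The other genes of the pathway were read from lists chosen by the words of the deposited descriptions. Of 21 other chalcone synthase genes, 17 of 18 tested on the sense strand and 17 of 17 on the antisense strand rose in Richland, with median changes of 4.52 and 4.16 against 0.00 and 0.02 over all genes. Glyma.19G105100 changed most on the sense strand (4.60 ± 0.61, edgeR adjusted p = 1.35e-07) and Glyma.08G110300 on the antisense strand (4.45 ± 0.43, edgeR adjusted p = 3.32e-22), both described as chalcone and stilbene synthase family proteins. These genes can share reads with CHS7, with CHS8 and with each other, so their counts are not separate observations. Among the 56 genes of the flavonoid pathway beyond CHS, 0 of 9 tested on the sense strand and 0 of 3 on the antisense strand passed, with median changes of 0.18 and 0.20. Over all genes 0.638% passed as higher and 0.441% as lower on the sense strand, and 0.824% and 0.437% on the antisense strand. Counts of 0 in so few genes lie near that background, so nothing is read from them.

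In the Williams coats against seedling cotyledons, 17 of 17 other CHS genes tested rose on each strand, by a median of 4.92 and 5.09, against 0.08 and 0.13 over all genes. Glyma.19G105100 led on the sense strand (11.86 ± 1.22, edgeR adjusted p = 1.55e-06) and Glyma.08G109500 on the antisense strand (5.28 ± 0.93, edgeR adjusted p = 0.000198). Beyond CHS, 1 pathway gene rose and 3 fell of 8 tested on the sense strand, and 3 rose and 3 fell of 6 on the antisense strand. As about as many genes of the whole table were called (27.5% higher and 23.2% lower on the sense strand, 28% and 26.4% on the antisense strand), nothing is read from these counts. Glyma.15G242900, described as chalcone-flavanone isomerase, the enzyme after CHS, rose by 3.82 ± 0.77 on the sense strand (edgeR adjusted p = 0.000333). Glyma.20G180800, described as phenylalanine ammonia-lyase 2, which opens the phenylpropanoid route that feeds CHS, fell by 6.10 ± 0.95 (edgeR adjusted p = 2.82e-05). On the antisense strand Glyma.11G010500, a 4-coumarate:CoA ligase 3 by its description, rose by 3.19 ± 0.54 (edgeR adjusted p = 0.000134), and Glyma.17G252200, a dihydroflavonol 4-reductase, fell by 7.34 ± 1.19 (edgeR adjusted p = 0.000104).

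Hits on genes listed as marks of other tissues, by words of their descriptions, were checked in the same fits. The list called seed storage was matched by the words cupin, seed storage, oleosin and late embryogenesis, so its genes need not all be storage proteins. In Richland against T157, 0 of 13 photosynthesis and 0 of 20 seed storage genes passed on the sense strand, and 0 of 12 and 0 of 29 on the antisense strand. Over all genes of that comparison 0.638% rose and 0.441% fell on the sense strand and 0.824% and 0.437% on the antisense strand. With so few calls, nothing is read from these counts. In the Williams comparison 3 photosynthesis genes rose and 33 fell of 49 on the sense strand and 5 rose and 4 fell of 17 on the antisense strand. Of the seed storage genes, 16 rose and 11 fell of 52 on the sense strand and 7 rose and 10 fell of 27 on the antisense strand. Over all genes 27.5% rose and 23.2% fell on the sense strand and 28% and 26.4% on the antisense strand, so the seed storage counts lie near the background. The photosynthesis genes with the largest changes were Glyma.06G014500 (5.83) and Glyma.07G047600 (-8.93) on the sense strand and Glyma.04G095000 (2.69) and Glyma.05G092100 (-3.94) on the antisense strand. For the seed storage list they were Glyma.13G357632 (8.92), Glyma.16G031000 (-7.90), Glyma.09G189900 (4.33) and Glyma.10G246300 (-8.16) in the same order. The last is described as a cupin and the others as late embryogenesis abundant proteins. Summed over the list, photosynthesis genes had 109 to 1486 RPM in immature seed coats and 2.30 to 1716 RPM in seedling cotyledons, and seed storage genes 144.5 to 1314 RPM and 0.902 to 215 RPM. Small RNA hits on these genes are not their transcript levels, and their part in the result was not tested.

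Hits were lower at each heavier weight in the 3 Williams coats, and higher at the heavier weight in Richland. In Williams, CHS7 sense RPM at 100 to 200 mg was 3.14 times that at 200 to 300 mg and 10.4 times that at 400 to 500 mg (95% interval 10.1 to 10.7), and antisense RPM was 4.16 and 12.8 times as high (12.3 to 13.5 for the latter). The ratios of CHS8 were 3.13 and 10.6 on the sense strand and 4.16 and 12.9 on the antisense strand. There was 1 library at each weight, so these are ratios of libraries with no replicate check. Clark 63 had 2.09 times the sense and 2.08 times the antisense RPM of Clark mi on CHS7 at the same weight, again 1 library each.

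In Richland, CHS7 went from 114.9 ± 47.2 sense RPM (mean ± SD, n = 3) at 5 to 6 mg to 633 RPM in the 10 to 25 mg library, and from 30.1 ± 9.13 to 173.1 antisense RPM. CHS8 went from 114.4 ± 46.6 to 627 sense RPM and from 27.6 ± 8.43 to 171.4 antisense RPM. In T157, CHS7 went from 5.52 ± 1.66 to 11.5 sense RPM, and its 1.11 antisense RPM at 10 to 25 mg lay within the 0.781 to 2.63 RPM at 5 to 6 mg. CHS8 went from 5.95 ± 1.87 to 11.3 sense RPM and from 0.603 ± 0.483 to 1.23 antisense RPM.

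In edgeR's model of line and weight, which assumes that the lone 10 to 25 mg libraries vary like the 5 to 6 mg groups and has no measure of the spread at that weight, both genes passed in Richland on the sense strand (2.18 ± 0.46 for CHS7, adjusted p = 9.21e-05; 2.17 ± 0.46 for CHS8, adjusted p = 9.67e-05) and on the antisense strand (2.02 ± 0.48 and 2.13 ± 0.48, adjusted p = 0.000139 and 5.77e-05). In that contrast 57.9% of 9492 genes on the sense strand and 52.9% of 9002 on the antisense strand passed, with median changes of -0.32 and -0.63, so a call alone does not set these genes apart. In T157 edgeR gave 1.92 ± 0.49 (adjusted p = 0.000790) and 1.79 ± 0.49 (adjusted p = 0.00173) on the sense strand of CHS7 and CHS8, where 61.3% of genes passed. On the antisense strand, where 62.2% passed, CHS8 changed by 1.85 ± 0.62 (edgeR adjusted p = 0.00730), and CHS7 had 0.46 ± 0.60 (-0.38 when scaled to reads), which did not pass (edgeR adjusted p = 0.494). The CHS8 antisense call was lost without T157 replicate 2 (1.45, edgeR adjusted p = 0.0628). Scaled to reads, the 3 calls in T157 were lost: the values were 1.06, 0.92 and 1.01 with edgeR adjusted p of 0.0964, 0.151 and 0.202.

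The weight change was not shown to differ between the lines. The difference Richland minus T157 was 0.26 ± 0.73 and 0.38 ± 0.73 on the sense strand of CHS7 and CHS8 and 1.55 ± 0.81 and 0.28 ± 0.88 on the antisense strand, with adjusted p of 1.00 for each in edgeR (unadjusted 0.0553 for CHS7 antisense). By edgeR 0% of genes passed on the sense strand, where 272 had an unadjusted p under 0.05 and DESeq2 also called 0, and 0.0889% passed on the antisense strand, 8 genes against 0 by DESeq2.

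**Figure D3:**
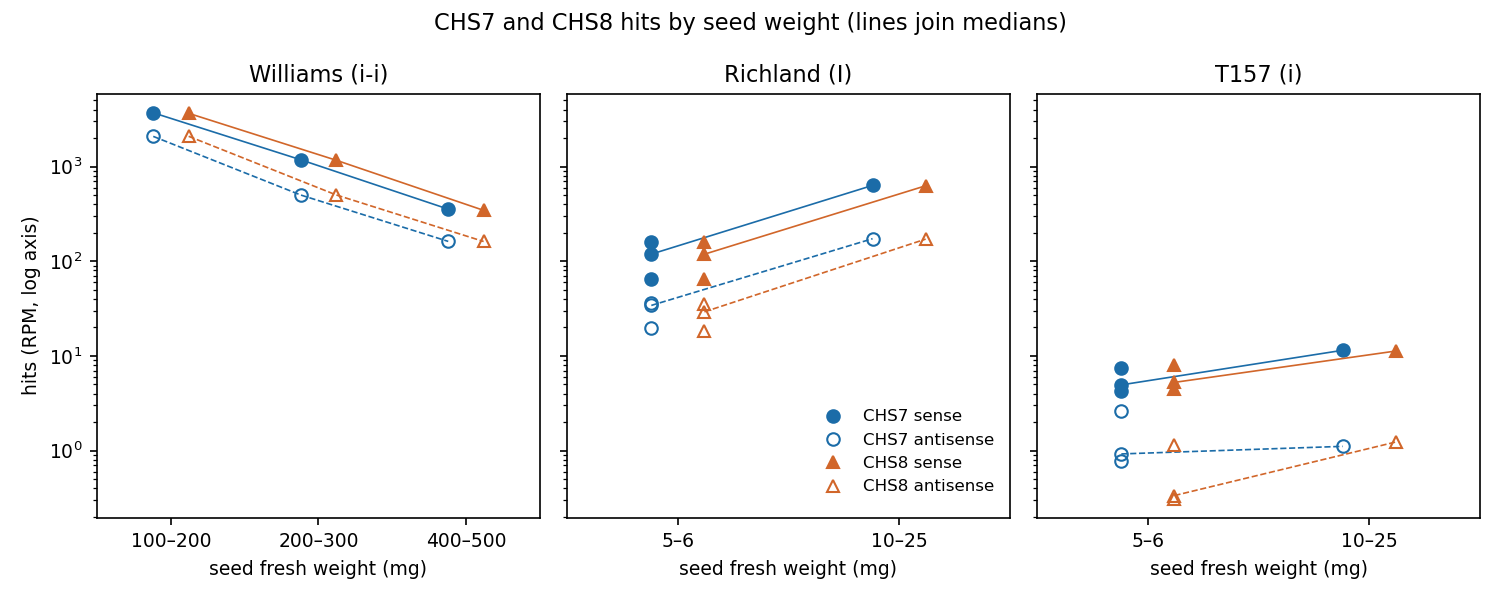
CHS7 (circles) and CHS8 (triangles) hits in RPM on a log axis against seed fresh weight in Williams, Richland and T157 seed coats, filled for sense and open for antisense, 1 point per library, with lines through medians. In Williams CHS7 sense hits were 3698, 1179 and 355 RPM from the lightest to the heaviest coats; in Richland they stood at 65.7 to 160 RPM at 5 to 6 mg and 633 RPM at 10 to 25 mg; in T157 all values were at or below 11.5 RPM.

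CHS7 and CHS8 had nearly equal hit counts wherever hits were many. Within the 9 I and i-i immature coats, CHS7 sense hits were 1.00 to 1.03 times those of CHS8, higher in 8 and equal in 1 (838 hits on each in Richland replicate 2). The mean log2 ratio was 0.01 ± 0.01 (SD, n = 9; exact sign-flip permutation p = 0.00781, adjusted 0.00938 over the 12 tests). Reads that match both genes can enter both counts, so the ratio does not compare genes that were measured separately. Antisense ratios were 0.997 to 1.17, with CHS7 higher in 7 of 9 and a mean log2 ratio of 0.04 ± 0.08 (exact permutation p = 0.0664). Without the Williams coat of 100 to 200 mg the exact permutation p was 0.0469, and without that of 200 to 300 mg it was 0.0312, with a mean log2 ratio of 0.05 in both. The cDNA of CHS8 is longer by 0.12 on the log2 scale. Per kilobase of cDNA the mean log2 ratio was 0.14 on the sense and 0.16 on the antisense strand. This step adds the same 0.12 to every coat, and no log2 ratio of hits lay below -0.004. CHS7 was thus bound to be higher in 9 of 9 coats, and no p is read from it. Lengths are of the whole cDNA, and where on it the hits lie is not in the table.

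Where hits were few, the antisense counts of the genes lay further apart than their sense counts in several libraries. In the 7 libraries of buds and adult tips CHS7 had 128 antisense hits and CHS8 66, with CHS7 higher in 5, while sense hits were 201 and 225. The adult tips of five-foliate and glabrous Clark had 35 and 26 antisense hits on CHS7 and 14 and 5 on CHS8. The 3 T157 libraries at 5 to 6 mg had 55 antisense hits on CHS7 and 23 on CHS8, and 206 and 222 sense hits. In seedling cotyledons the antisense hits were 89 and 84. In other libraries CHS8 was equal or higher: the dry cotyledon had 38 antisense hits on CHS7 and 46 on CHS8, the immature cotyledon 30 and 38, an embryo axis 24 and 24 and T157 at 10 to 25 mg 27 and 30. In the 5 i coats the mean log2 ratio was 0.88 ± 0.58 (SD) on the antisense strand, with CHS7 higher in 4 of 5 (exact permutation p = 0.125), and -0.05 ± 0.07 on the sense strand (exact permutation p = 0.250); 5 libraries cannot give a p under 0.0625. These libraries were compared after the values had been seen.

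**Figure D4:**
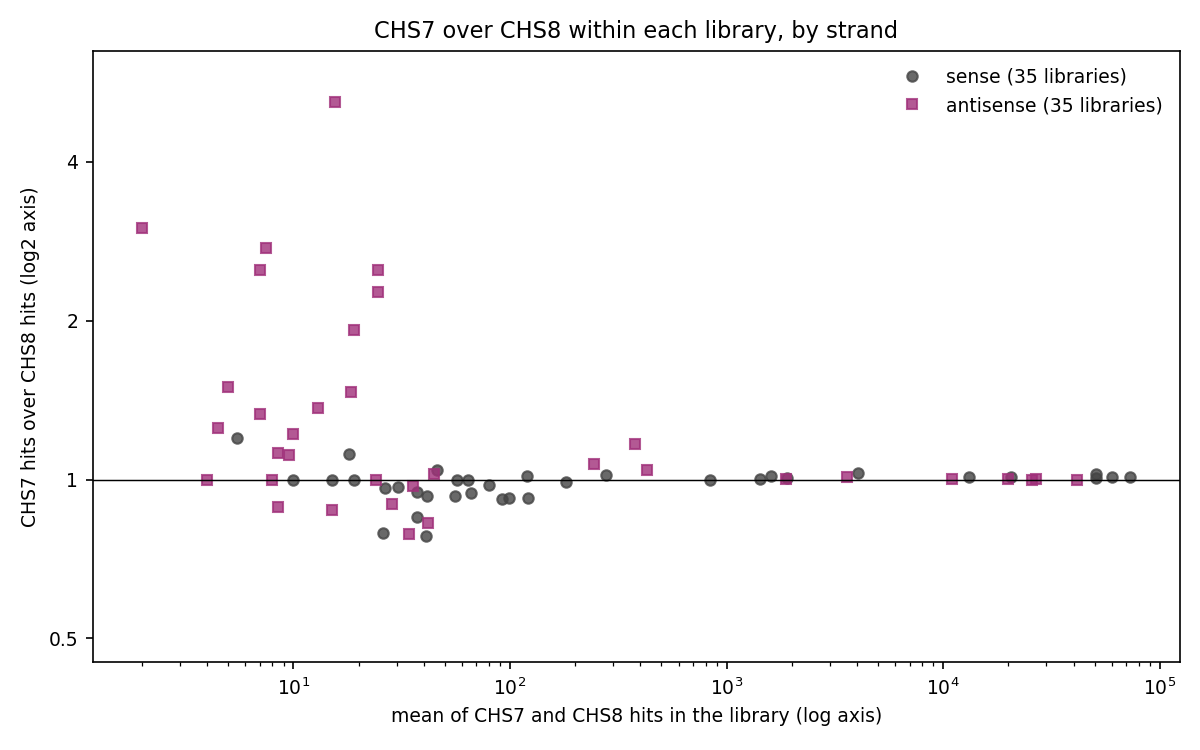
CHS7 hits divided by CHS8 hits (log2 axis) against the mean of their hits in the library (log axis), for sense hits (circles) and antisense hits (squares) in the 35 libraries with hits on both genes. Sense ratios stayed near 1; antisense ratios lay at 0.997 to 1.17 in the 9 I and i-i immature coats, and spread above 2 in several libraries with few hits, among them T157 and the adult tips.

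CHS7 and CHS8 had a larger part of their hits on the sense strand than the rest of the family. In the 9 I and i-i immature coats the 18 other genes matched to the Arabidopsis CHS gene TT4 had 51.9 to 70.5% of their summed hits on the sense strand, and CHS7 and CHS8 together had the higher share in 9 of 9. In the Clark 63 coat the values were 51.9% for the other genes and 65.4% for CHS7 and CHS8, and in Richland replicate 3 they were 69.5 and 81.7%. In Williams 44 the other genes were 91.2% sense, from 8754 sense and 848 antisense hits, against 99.9%. As reads can be shared within the family, this comparison is a description with no test.

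Over the 36 libraries, the genes whose log2(RPM + 1) of both strands went most closely with the summed CHS7 and CHS8 hits, among 4738 genes with a mean of at least 5 RPM, were all of the CHS family. They were Glyma.09G075200 with a Pearson r of 0.965, and Glyma.08G109500, Glyma.08G110340, Glyma.08G110701 and Glyma.08G109200 with r of 0.959. Libraries share their tissue, and these genes can share reads, so r is given as a description. In rank, CHS7 and CHS8 were at places 25 and 26 of all genes by hits in the Williams coat of 100 to 200 mg, where they held 0.726% of gene hits, and at 297 and 304 in Richland replicate 2. In Williams 44 they were at 1252 and 1271 by hits on both strands, but at 14122 and 16671 by antisense hits.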

How the data were processed

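Small RNA libraries of total RNA from 36 soybean tissue samples were read from the tables that the authors deposited. Per the file headers, one table gives raw counts by strand, total and unique, for 86256 transcript models, of which those marked "Lowest splice" were kept, 1 per gene. The other, per the file headers, lists each library's reads, its total counts on both genes and the RPM that the authors derived. The tables gave equal counts for both genes in 36 of 36 libraries, and recomputed RPM matched the deposited RPM within a relative tolerance of 1e-06. Per the submitters' processing notes reads were aligned with Bowtie 1. The sources used here state no read lengths, allowed mismatches or definition of a unique hit. Hits of every length are pooled, so siRNAs and pieces of degraded messenger RNA are counted alike.

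RPM of each strand were computed by dividing hits by the deposited reads. Contrasts of CHS7 and CHS8 used log2(RPM + 1) and two-sided exact permutation tests. Sense shares were taken from libraries with at least 20 hits, with exact (Clopper-Pearson) intervals at 95%. Each strand's whole table was tested in R 4.3.3 by the quasi-likelihood F test of edgeR 4.0.16 after TMM scaling. Genes were kept by filterByExpr (total of 15, count of 10), and p-values were adjusted over all of them by Benjamini-Hochberg, with a threshold of 0.05. The code was tested on simulated data. Python 3.11.15 was used with numpy 2.4.6, scipy 1.17.1, pandas 2.3.3 and matplotlib 3.10.9. Alternatives were unique hits, other scalings, pseudocounts and filters, DESeq2 1.42.0, merged genes, a replicate block and leaving out libraries.

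The members and lists were chosen with earlier results of these data known. Named are CHS7, CHS8, the 5 genes most like them, and in each list and comparison the gene that passed with the largest change in each direction. No adjusted p was taken over a list alone, since the lists were chosen that way. Neither a genome nor a sequence of these genes was used here.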

Additional observations from a re-analysis of the deposited data

Results flagged for a closer look

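In the 5 i seed coats, the sense hits of the Williams 44 library lay far above the other libraries, at 60.7 RPM for CHS7 and 59.7 RPM for CHS8 against at most 11.5 and 11.3 RPM in T157. The gap to the next library was 0.871 and 0.878 of the group's whole range, over Dixon's limit of 0.71 for 5 libraries. In all, 30 combinations of group, gene and measure were examined and 2 passed the limit, near the 1 in 20 that chance gives. CHS7 and CHS8 can share reads, so the 2 are not separate observations. The antisense hits of Williams 44 were not far from the others by this measure. Its cultivar, weight range and T allele differ from those of T157, and their part was not tested.

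The Williams dry seed coat entered no contrast. It had 1923 sense and 749 antisense RPM on CHS7, and 1877 and 746 RPM on CHS8, above every i seed coat. Against the Williams coat of 400 to 500 mg its CHS7 hits were 5.41 times as high on the sense strand (95% interval 5.24 to 5.59) and 4.62 times on the antisense strand (4.40 to 4.84). Its sense share was 72.0% for CHS7 and 71.6% for CHS8, just above the highest i-i immature coat at 70.2 and 69.9%.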

How the results depend on the processing

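CHS7 and CHS8 kept their direction and their call under every alternative fit run for Richland against T157 and for the Williams comparison. So did 126 of 132 alternative values of their weight changes and all but 9 of 124 permutation contrasts. The contrasts that moved are these. On the linear RPM scale, I and i-i coats exceeded i coats by means of 1023 and 518 RPM on the sense and antisense strand of CHS7 and 1011 and 518 RPM for CHS8, and the exact permutation p rose to between 0.0569 and 0.0834. The CHS7 sense share differed by -19.0 to -10.4 points as single libraries were left out, and its call was lost without Williams 44. In 2 alternatives chosen after seeing the data, the log2 ratio of CHS7 to CHS8 was -0.052 on the sense strand of the 5 i coats, the opposite sign of the main value, and 0.16 on the antisense strand per kilobase. The division by length adds the same value to every coat, so the cDNA lengths fixed its sign. With single libraries left out, the antisense log2 ratio of hits, not divided by length, was 0.021 to 0.0496.

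Scaled to reads, the T157 weight changes were 1.06 for CHS7 sense, 0.92 for CHS8 sense and 1.01 for CHS8 antisense, none of them called. The last was 1.45 to 2.65 as single libraries were left out. Of the uncalled values, CHS7 antisense in T157 turned to -0.38 when scaled to reads. The difference of weight changes for CHS8 antisense was -0.53 without T157 replicate 3 at 5 to 6 mg and 0.58 without replicate 2. Over all alternatives, other scalings included, that difference ran from -0.53 to 1.62. Counts of called genes moved more. For Richland against T157 with single libraries left out, 39 to 73 genes were higher and 19 to 44 lower on the sense strand, and 16 to 28 lower on the antisense strand. Scaled to reads, 56 were lower on the sense strand. On the antisense strand, 88 were higher with no low-count filter, 26 higher and 12 lower with genes of identical counts merged, and 17 lower by unique hits. In the Williams comparison with no filter, where more genes are tested, 6361 sense genes were higher and 4138 and 4239 antisense genes were higher and lower. Scaled to reads, 720 sense genes were lower, and 3597 and 666 antisense genes were higher and lower. For the difference of weight changes, single libraries left out gave 0 to 6 sense and 0 to 21 antisense genes. The 8 antisense genes became 0 scaled to reads, by DESeq2 and by unique hits, and 19 with DESeq2 size factors. Unless stated, the cause of these shifts was not tested.

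With the replicate number as a replicate block, Richland against T157 gave 4.64 and 4.85 for CHS7 sense and antisense and 4.53 and 5.95 for CHS8, all called in edgeR, with 35 genes higher and 22 lower on the sense strand and 35 and 15 on the antisense strand. Libraries with the same number correlated at -0.25 to -0.04 in their deviations from the group mean. With 3 libraries per group this cannot decide whether equal numbers mark shared plants or days, and the labels do not say.

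Several groups hold 1 library, and values that rest on them have no replicate check. The i coats had 1 to 34 antisense hits on each gene, so their antisense ratios and shares are set by few hits. Which of the named kits made a library is not given in the labels. Reads that match CHS7, CHS8 and other family members alike cannot be divided between them, so the genes are not separate observations. Hits carry no length or position here, and siRNAs were not told apart from other fragments.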

Other observations

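Outside the chalcone synthase genes, the genes whose hits went most closely with those of CHS7 and CHS8 over the 36 libraries were Glyma.18G001700, which has no description (place 14 of 4738, Pearson r 0.940), and Glyma.03G180100, described as a transducin/WD40 repeat protein (place 18, r 0.900). Unlike CHS7 and CHS8 they had most hits on the antisense strand, with 14.4 and 8.43% of hits on the sense strand. Places 20, 21 and 22 were held by Glyma.13G221400, Glyma.08G100100 and Glyma.05G143800, all described as auxin response factor 8, a regulator of auxin-responsive genes, with r of 0.890, 0.889 and 0.884 and 48.3 to 52.0% of hits on the sense strand. These genes were named after their values were seen, and r over libraries that share their tissue is a description.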
